A study of Mus musculus with 8 samples.

Results

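The Hox cluster genes are the homeobox genes named Hoxa, Hoxb, Hoxc or Hoxd with a number, and 39 of the 24346 genes listed for each library carry such a symbol. They encode transcription factors that record where along the head-to-tail axis a cell arose. They lie in 4 clusters, HoxA, HoxB, HoxC and HoxD. The number of a gene is its paralogue number, shared by genes of common ancestry in different clusters. Low numbers sit at the 3′ end of a cluster and mark anterior levels such as the hindbrain and neck, and high numbers sit at the 5′ end and mark the lumbar, sacral and genital levels. Stromal cells of adult fat depots keep a set of Hox genes that differs between depots, and ducts of the kidney and the genital tract keep their own sets. The combination of active clusters and numbers is therefore read here as a description of positional identity.

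The cells were cultured as adipose-derived stem cells from gonadal fat of twelve-week-old male wild-type BALB/c mice, and the labels call them primary mesenchymal stem cells. The first group was grown in 2D, and the other as 3D organotypic cultures in Matrigel, a basement membrane gel. For 3D the paper used media conditioned by cells making Wnt3a and R-Spondin1 in several amounts, and also media without them. It does not state which mix the sequenced cultures had, and culture form and medium may differ together between the groups. There are 4 libraries of 2D cultures, from mice 2, 3, 4 and 5, and 4 libraries of 3D cultures, from mice 1, 4, 5 and 7. The label of the 3D library of mouse 1 carries a description that ends in 13 where the other 3D descriptions end in 3D, and its meaning is not given in the sources used here. Total RNA was sequenced, and each gene's level is the deposited FPKM, in which fragments are scaled to transcript length and sequencing depth. The depth, estimated from the steps between low values, was 16.4 to 17.4 M fragments per library in 2D and 14.5 to 15.6 M in 3D. Values are given in the order of mice 2, 3, 4 and 5 for 2D and of mice 1, 4, 5 and 7 for 3D.

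Markers of the labelled cell type were present in the 2D libraries, beside other markers in those of mice 3 and 4, and most were near 0 in 3D. Of 12 stromal cell markers, 10 fell in 3D and 1 rose (all genes tested: 20.3% lower, 21.2% higher), and the list summed to 3358, 2138, 2139 and 4505 FPKM in 2D and 136, 1707, 1830.0 and 2668 FPKM in 3D. Col1a2, a chain of type I collagen, was at 1657, 1032, 756 and 2424 FPKM in 2D and at 0.0264, 0.0124, 0 and 0.0246 FPKM in 3D. Pdgfrb and Dcn, a receptor and a proteoglycan of stromal cells, were listed at 0 in all 4 3D libraries. Cd44, a receptor for hyaluronan, did not pass the test, at 180.3, 102, 92.7 and 165 FPKM in 2D and at 75.97, 74.01, 89.7 and 52.9 FPKM in 3D. The marker that rose was Ly6a, the Sca-1 antigen, at 26.01, 70.2, 189 and 61.4 FPKM in 2D and at 50.3, 1627, 1735 and 2607 FPKM in 3D, and it was the most abundant marker over all libraries. Of 12 epithelial cell markers, 11 rose and 0 fell, with sums of 32.8, 193, 783 and 34.1 FPKM in 2D and 2273, 2702, 2458 and 2241 FPKM in 3D. Epcam, an adhesion molecule of epithelial cells, was at 0.0309, 0, 0 and 0 FPKM in 2D and at 416, 276, 229 and 212 FPKM in 3D. Esrp1 and Elf3 were listed at 0 in all 4 2D libraries. Krt18, the most abundant marker, was the one that did not pass the test (adjusted p = 0.0519). It was at 2.28, 129, 287 and 0 FPKM in 2D and at 346.5, 582, 485 and 408 FPKM in 3D. Pax2 and Pax8, transcription factors of the kidney and genital ducts, were above 0 in every 3D library. Pax8 was at 0, 0.0236, 0.0231 and 0 FPKM in 2D and at 26.8, 35.1, 35.7 and 33.6 FPKM in 3D.

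The 2D libraries were not alike either. Mesothelial markers, which belong to the lining of the body cavity and of gonadal fat, summed to 1.62, 894, 2391 and 0.359 FPKM in 2D and 3.68, 30.6, 6.35 and 6.68 FPKM in 3D. They were high in the 2D libraries of mice 3 and 4, in mouse 4 above the stromal sum, and low in those of mice 2 and 5. Msln, the most abundant of the 8, was at 0.240, 256, 785 and 0.182 FPKM in 2D and at 0.756, 30.2, 6.14 and 6.43 FPKM in 3D, and 0 of the 8 passed the test (all genes tested: 21.2% higher, 20.3% lower). Gpm6a and Rspo1 were listed at 0 in all 4 3D libraries. In RNA from many cells, fewer cells of a type and less RNA per cell cannot be told apart. Several Hox genes follow the same split of the 2D libraries, as given beside them, and the part of these cells in the results was not tested. Among the 3D libraries, that of mouse 1 stood apart. Its correlation across genes with the other 3D libraries was 0.931 to 0.935, and those correlated at 0.965 to 0.974 with each other. Six2, a transcription factor of position, was at 34.2 FPKM in mouse 1 and at 0.749, 0 and 0.0643 FPKM in mice 4, 5 and 7.

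All 39 Hox genes except Hoxd12, which was listed at 0 in every library, were tested. Of the 38 tested, 13 were higher and 15 lower in 3D at an adjusted p below 0.05. Over all 18862 genes tested, 21.2% were higher and 20.3% lower. The clusters took different directions. In HoxB, 8 of 10 genes rose and 0 fell, and in HoxD 5 of 8 rose and 0 fell. In HoxC, 9 of 9 genes fell, and in HoxA 6 of 11 fell and 0 rose. The median log2 fold change was 2.80 over HoxB, 1.25 over HoxD, -2.79 over HoxC and -1.15 over HoxA, beside 0.00 over all genes tested. In 14 Hox genes the lowest 3D value exceeded the highest 2D value, and in 12 all 4 3D libraries lay below. Over all genes tested, 23.6% and 21.8% were separated in these directions. Within the pairs from mice 4 and 5 alone, every HoxC gene was lower and Hoxb2 to Hoxb9 were higher in 3D in both mice. Hoxb1 and Hoxb13, near 0 and not called, differed by 0.08 and 0.19 and by 0.75 and 0.04 on the log2 scale. The share of all genes with the same direction in both mice was not computed. A fit with the mouse number as a replicate block rests on these pairs and leaves 1 residual degree of freedom. It called 0 of the 38 Hox genes, with 22 of the 28 at an unadjusted p below 0.05 and all 28 in the same direction. Their adjusted p-values ranged from 0.111 to 0.344 there.

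**Figure D1:**
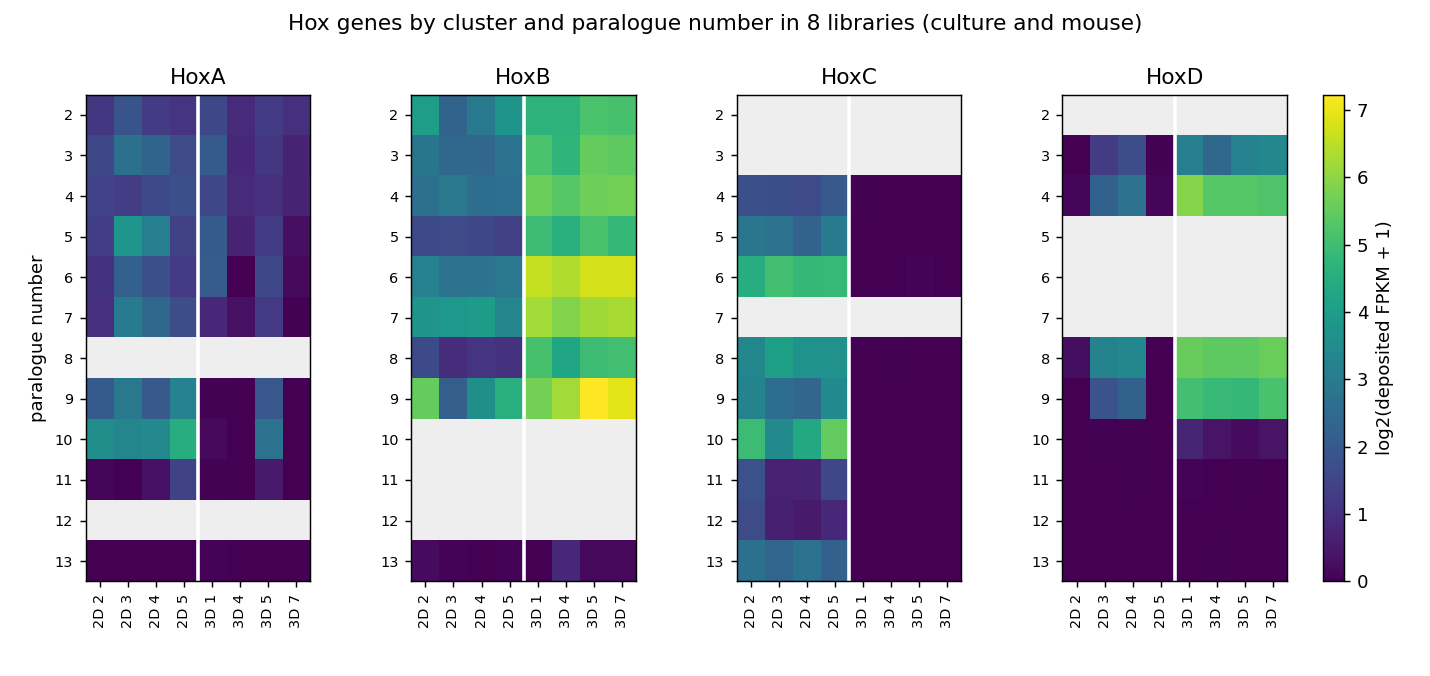
Level of the Hox genes with numbers 2 to 13 as log2(deposited FPKM + 1), with the paralogue number on the vertical axis, 1 column per library and 1 panel per cluster; grey marks numbers for which the cluster has no gene. HoxC is dark in all 4 3D libraries, HoxB numbers 2 to 9 are brighter in 3D, and HoxD numbers 3, 4, 8 and 9 are bright in 3D and dark in the 2D libraries of mice 2 and 5.

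Summed over its 10 genes, HoxB stood at 96.2, 40.8, 50.6 and 63.2 FPKM in 2D and at 392, 344, 522 and 491 FPKM in 3D. HoxC stood at 87.5, 75.9, 75.2 and 109 FPKM in 2D and at 0.0370, 0.0286, 0.0477 and 0 FPKM in 3D. The 2 clusters thus moved in opposite directions with no overlap between the cultures. HoxD summed to 0.305, 16.1, 20.97 and 0.190 FPKM in 2D and 146, 115, 117 and 127 FPKM in 3D, so that only the 2D libraries of mice 3 and 4 held an appreciable level. HoxA summed to 25.6, 51.7, 37.4 and 46.3 FPKM in 2D and 14.9, 3.96, 18.5 and 3.13 FPKM in 3D, lower in every 3D library than in any 2D library. As a share of all Hox FPKM of a library, HoxC gave 40.8% to 49.9% in 2D and at most 0.00726% in 3D. The share of HoxB was 22.1% to 45.9% in 2D and 70.9% to 79.4% in 3D, and that of HoxD 0.0867% to 11.4% and 17.8% to 26.4%. The sum of all Hox genes was 199 ± 17.7 FPKM in 2D and 574 ± 85.8 FPKM in 3D (SD, n = 4 each).

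**Figure D2:**
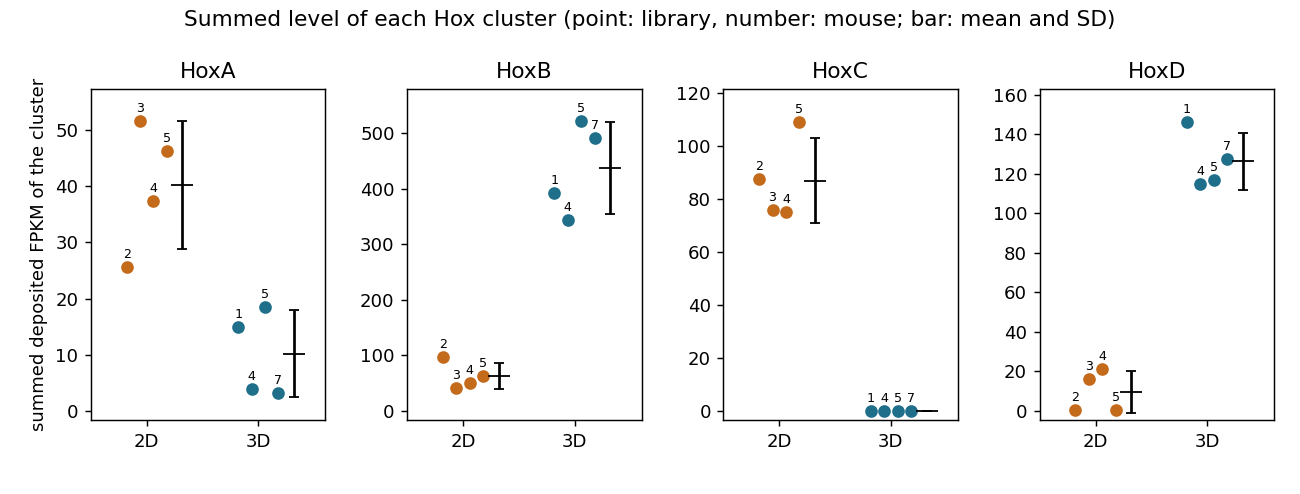
Summed deposited FPKM of the genes of each cluster in each library, with the mouse number beside each point and the mean and SD (n = 4) as bars. HoxB and HoxD lie higher and HoxA and HoxC lower in the 3D libraries, with no overlap of the cultures in any of the 4 clusters.

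HoxB lies on chromosome 11 (GRCm38, chr11:96194316-96368256) and rose from number 2 to number 9 without a gap. All fold changes and tests that follow were made on log2(FPKM + 1) after quantile normalization of the libraries, a scale that understates the change of weakly expressed genes. They are written as 3D minus 2D with the standard error. Beside them stands the plain ratio of the mean deposited FPKM of the 2 cultures, the higher over the lower.

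The anterior HoxB genes pattern the hindbrain and the pharyngeal arches. Hoxb2, which acts in the segments of the hindbrain, was at 15.2, 3.97, 6.56 and 12.3 FPKM in 2D and at 24.7, 24.3, 35.4 and 33.9 FPKM in 3D. Hoxb3, a partner of it in the hindbrain and the thyroid region, was at 5.95, 4.303, 4.22 and 5.72 FPKM in 2D and at 35.2, 25.4, 45.01 and 41.8 FPKM in 3D. For both genes the lowest 3D library lay above the highest 2D library, and for Hoxb2 the 2D libraries of mice 2 and 5 were closest to 3D. Their log2 fold changes were 1.76 ± 0.36 (adjusted p = 0.00554) and 2.70 ± 0.22 (adjusted p = 6.79e-05), with ratios of 3.12 and 7.303. Without the 2D libraries of mice 3 and 4 the fold change of Hoxb2 was 1.15, with an adjusted p of 0.00905. Hoxb4, known for the expansion of blood stem cells, was at 5.38, 6.46, 5.07 and 5.24 FPKM in 2D and at 47.4, 39.9, 48.4 and 50.5 FPKM in 3D. It was the most even of the cluster, with 2D and 3D libraries each in a narrow band. Its mean rose 8.402-fold, with a log2 fold change of 2.98 ± 0.11 (adjusted p = 9.99e-07).

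The central HoxB genes act at the thoracic level. Hoxb5, which takes part in the branching of the lung, was at 2.08, 2.23, 1.98 and 1.58 FPKM in 2D and at 30.1, 22.8, 34.5 and 27.1 FPKM in 3D. Hoxb6, a gene of the trunk and lateral mesoderm, was at 8.16, 5.71, 5.68 and 6.34 FPKM in 2D and at 95.4, 81.5, 108 and 108 FPKM in 3D. Both were low in each 2D library, and every 3D value lay far above the highest 2D value. Hoxb5 changed by 3.27 ± 0.16 (adjusted p = 4.25e-06) with a ratio of 14.6, and Hoxb6 by 3.96 ± 0.15 (adjusted p = 1.17e-06) with a ratio of 15.2. Hoxb5 and Hoxb6 overlap the antisense gene Hoxb5os, at 0.324, 0.323, 1.21 and 0.162 FPKM in 2D and at 10.9, 5.14, 20.7 and 18.5 FPKM in 3D. Whether the authors counted fragments by strand is not given in the sources used here, so the levels of overlapping genes are uncertain in their split. Hoxb7, whose promoter is the standard driver of transgenes in the nephric duct and ureteric bud, was at 12.4, 13.6, 14.8 and 8.696 FPKM in 2D and at 73.7, 57.2, 72.2 and 76.1 FPKM in 3D. Hoxb8, which holds myeloid progenitors in an undifferentiated state, was at 2.06, 0.892, 1.17 and 1.09 FPKM in 2D and at 33.6, 18.1, 30.2 and 31.5 FPKM in 3D. The 2D libraries already held a clear level of Hoxb7, whereas Hoxb8 was near 1 FPKM there, and neither overlapped between the cultures. Hoxb7 changed by 2.69 ± 0.17 (adjusted p = 1.63e-05) and Hoxb8 by 3.64 ± 0.27 (adjusted p = 4.29e-05), with ratios of 5.65 and 21.8.

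Hoxb9, which marks the level of the ribs, was at 44.8, 3.56, 11.2 and 22.2 FPKM in 2D and at 51.9, 74.2, 149 and 122 FPKM in 3D. It was the most variable HoxB gene in 2D, highest in mouse 2 and lowest in mouse 3, and the highest 2D library came close to the lowest 3D library without reaching it. The log2 fold change was 2.91 ± 0.67 (adjusted p = 0.00973) with a ratio of 4.85. Without the 2D libraries of mice 3 and 4 it was 1.92, with an adjusted p of 0.0331. Without those of mice 2 and 5 it was 3.71 (adjusted p = 0.00567), and without that of mouse 2 alone 3.31 (adjusted p = 0.00569). The ends of the cluster stayed low. Hoxb1, of the hindbrain, was between 0 and 0.211 FPKM, and Hoxb13, of the prostate and hindgut, between 0 and 0.794 FPKM, the latter in the 3D library of mouse 4. Neither passed the test.

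The windows of 250 bases before the transcription starts of Hoxb4 and Hoxb8 are shown because they belong to genes that rose together in the cluster (RefSeq, GRCm38.p6; Hoxb4 chr11:96318017-96318266, plus strand; Hoxb8 chr11:96281655-96281904, plus strand). Capitals mark each CG, the dinucleotide whose density distinguishes CpG-rich promoters.
Hoxb4: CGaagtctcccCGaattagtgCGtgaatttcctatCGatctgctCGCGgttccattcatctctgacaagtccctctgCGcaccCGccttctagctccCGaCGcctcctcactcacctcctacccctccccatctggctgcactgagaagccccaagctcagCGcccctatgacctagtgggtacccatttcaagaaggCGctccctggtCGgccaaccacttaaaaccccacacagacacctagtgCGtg
Hoxb8: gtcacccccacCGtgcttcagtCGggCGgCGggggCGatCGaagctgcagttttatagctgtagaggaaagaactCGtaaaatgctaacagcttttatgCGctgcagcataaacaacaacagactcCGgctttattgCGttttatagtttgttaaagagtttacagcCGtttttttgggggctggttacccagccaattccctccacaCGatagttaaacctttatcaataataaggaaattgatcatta
These windows hold 14 and 12 CG. Such windows were found for 22 of the 39 Hox genes, 24 windows in all, with a median of 12.5 CG, and 15 of the 24 held at least 10 CG. Among all 32851 promoter windows of the table the median was 6 CG, and 37.8% held at least 10. A motif of 8 bases that Hox and Pbx proteins bind together, with 2 free bases inside, was searched on both strands. It occurs in 4 of the 24 Hox windows (16.7%) and in 7.7% of all windows. These windows belong to Hoxa2, Hoxb1, Hoxb8 and Hoxd11, and of these genes only Hoxb8 passed the test. A match describes letters and does not show binding.

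**Figure D3:**
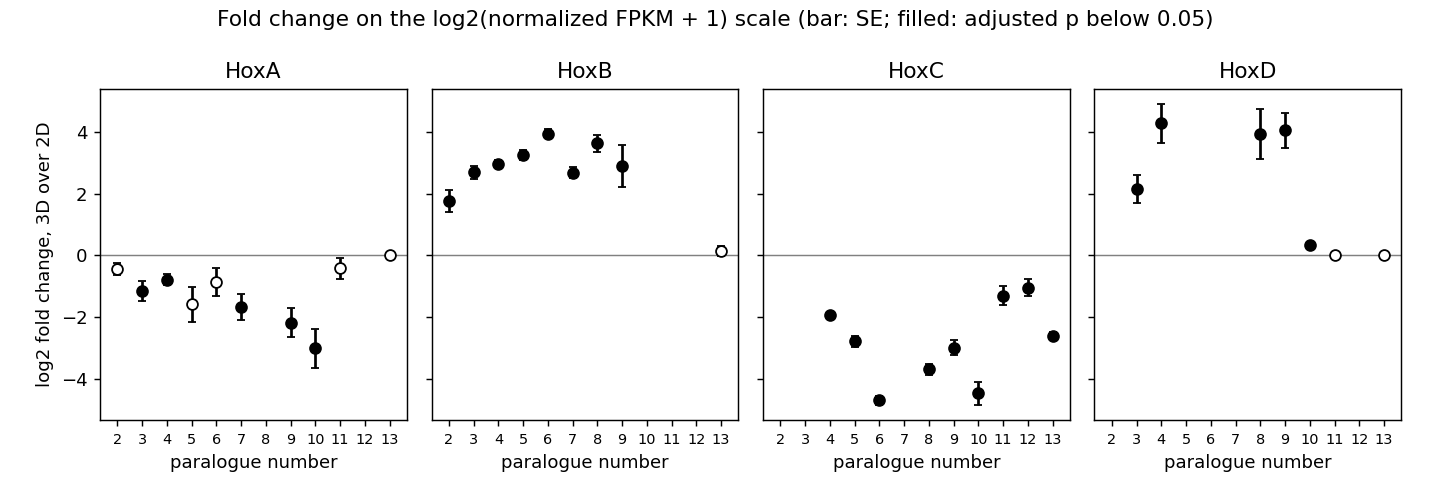
Log2 fold change (3D over 2D) of the tested Hox genes with numbers 2 to 13 against paralogue number, 1 panel per cluster, with standard errors; filled points have an adjusted p below 0.05. HoxB numbers 2 to 9 lie between 1.76 and 3.96, all 9 HoxC genes lie between -4.70 and -1.05, and HoxD rises at numbers 3, 4, 8, 9 and, by 0.34, at number 10.

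HoxC, on chromosome 15 (GRCm38, chr15:102921103-103036852), was the largest source of Hox RNA in the 2D libraries of mice 3, 4 and 5 and was close to absent from 3D. In each 3D library every HoxC gene lay at or under the level that 3 fragments give at the estimated depth, which was at most 0.200 FPKM for these genes and covers counting error only. Changes are therefore also given as lower bounds, the mean 2D FPKM over the highest such level among the libraries.

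Hoxc4, active at the neck, was at 2.42, 2.31, 2.22 and 3.07 FPKM in 2D and at 0.0370, 0, 0 and 0 FPKM in 3D. Hoxc5, its neighbour at the level of the forelimb, was at 6.16, 5.57, 3.87 and 6.68 FPKM in 2D and at 0, 0, 0 and 0 FPKM in 3D. The 2D libraries of each gene lay close together, and both genes were at or near 0 in 3D. Hoxc4 was at least 24.03-fold and Hoxc5 at least 78.8-fold lower, with log2 fold changes of -1.94 ± 0.11 (adjusted p = 1.26e-05) and -2.79 ± 0.17 (adjusted p = 1.35e-05). Transcripts of Hoxc5 span Hoxc6, Hoxc8 and Hoxc9 and overlap part of Hoxc10 on the same strand, so the split of fragments between these genes is uncertain. Hoxc6, a thoracic gene, was at 21.9, 31.7, 26.9 and 27.5 FPKM in 2D and at 0, 0, 0.0477 and 0 FPKM in 3D. Hoxc8, which patterns the lower thoracic vertebrae and brachial motor neurons, was at 8.87, 16.2, 11.7 and 11.7 FPKM in 2D and at 0, 0.0286, 0 and 0 FPKM in 3D. Hoxc6 was the highest HoxC gene in the 2D libraries of mice 3 and 4, and neither gene passed the level of 3 fragments in any 3D library. The bounds were 206-fold for Hoxc6 and 109.6-fold for Hoxc8, with log2 fold changes of -4.70 ± 0.15 (adjusted p = 5.98e-07) and -3.70 ± 0.17 (adjusted p = 3.53e-06).

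Hoxc9, which sets thoracic motor neuron identity, was at 8.303, 5.14, 4.25 and 9.95 FPKM in 2D and at 0, 0, 0 and 0 FPKM in 3D. Hoxc10, a lumbar and hindlimb gene that also restrains browning in white fat, was at 29.8, 9.78, 19.5 and 44.1 FPKM in 2D and at 0, 0, 0 and 0 FPKM in 3D. Both were higher in the 2D libraries of mice 2 and 5 than in those of mice 3 and 4, the opposite order to the mesothelial markers. They were at least 79.4-fold and 238-fold lower in 3D, with log2 fold changes of -2.99 ± 0.24 (adjusted p = 5.70e-05) and -4.48 ± 0.37 (adjusted p = 6.99e-05). Hoxc11, another hindlimb gene, was at 2.49, 0.573, 0.629 and 1.92 FPKM in 2D and at 0, 0, 0 and 0 FPKM in 3D. Hoxc12 reached a mean of only 0.992 FPKM in 2D and was at 0 throughout 3D. Hoxc13, required for hair and nails, was at 5.37, 4.09, 5.65 and 3.61 FPKM in 2D and at 0, 0, 0 and 0 FPKM in 3D. Hoxc13 was even across the 2D libraries, while Hoxc11 was highest in mice 2 and 5. Hoxc11 and Hoxc13 were at least 13.7-fold and 55.7-fold lower, with log2 fold changes of -1.31 ± 0.31 (adjusted p = 0.0120) and -2.61 ± 0.14 (adjusted p = 8.88e-06). For Hoxc12 the log2 fold change was -1.05 ± 0.28 (adjusted p = 0.0198). Without the 2D libraries of mice 2 and 5, the fold changes of Hoxc11 and Hoxc12 were -0.77 and -0.66, with adjusted p-values of 4.90e-05 and 0.000779. A pseudocount of 0.1 in place of 1 moved the fold changes of all 9 HoxC genes further from 0, to between -7.84 and -3.42.

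HoxD, on chromosome 2 (GRCm38, chr2:74668310-74765142), has no genes with the numbers 5 to 7, and its expressed part was made up of Hoxd3, Hoxd4, Hoxd8 and Hoxd9. Hoxd3, which shapes the atlas, was at 0, 1.41, 2.25 and 0.0214 FPKM in 2D and at 7.68, 4.43, 8.15 and 9.31 FPKM in 3D. Hoxd4, of the upper neck and hindbrain, was at 0.0730, 3.73, 5.43 and 0.0982 FPKM in 2D and at 59.1, 39.1, 39.03 and 36.5 FPKM in 3D. Both were near 0 in the 2D libraries of mice 2 and 5, intermediate in those of mice 3 and 4, and highest in every 3D library. The log2 fold changes were 2.16 ± 0.45 (adjusted p = 0.00674) and 4.29 ± 0.63 (adjusted p = 0.00124), with ratios of 8.05 and 18.6. Hoxd3 and Hoxd4 overlap on the same strand, so that their split is uncertain. Hoxd8, a trunk gene, was at 0.197, 8.33, 9.43 and 0 FPKM in 2D and at 45.9, 42.4, 42.2 and 46.3 FPKM in 3D. Hoxd9, of the lumbar spine and the limb, was at 0, 2.604, 3.73 and 0 FPKM in 2D and at 32.8, 28.3, 27.2 and 34.8 FPKM in 3D. The same 3 tiers returned, with the 2D libraries of mice 2 and 5 at or close to 0. Hoxd8 changed by 3.94 ± 0.81 (adjusted p = 0.00600) and Hoxd9 by 4.06 ± 0.56 (adjusted p = 0.000894), with ratios of 9.85 and 19.4.

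The 2D libraries with HoxD RNA are those with mesothelial markers, and the part of mesothelial cells in the level of HoxD in 2D was not tested. Without the 2D libraries of mice 3 and 4, the log2 fold changes of Hoxd3, Hoxd4, Hoxd8 and Hoxd9 were 2.94, 5.43, 5.46 and 5.09. Without those of mice 2 and 5 they were 1.36, 2.97, 2.25 and 2.88, and all 8 adjusted p-values were at most 0.0209. Above number 9 the cluster was nearly silent. Hoxd10, of the lumbar cord and hindlimb, was between 0 and 0.0342 FPKM in 2D and between 0.161 and 0.680 FPKM in 3D, and it passed the test with 0.34 ± 0.07 (adjusted p = 0.00441). Hoxd11, Hoxd12 and Hoxd13, which build the forearm, the digits and the genital bud, stayed at or under 3 fragments in all 8 libraries. Hoxd1 did so in 7 of 8 libraries.

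The windows before the starts of Hoxd4 and Hoxd8 are shown as those of a pair that rose together from a low level in 2D (RefSeq, GRCm38.p6; Hoxd4 chr2:74721728-74721977, plus strand; Hoxd8 chr2:74704365-74704614, plus strand), again with CG in capitals.
Hoxd4: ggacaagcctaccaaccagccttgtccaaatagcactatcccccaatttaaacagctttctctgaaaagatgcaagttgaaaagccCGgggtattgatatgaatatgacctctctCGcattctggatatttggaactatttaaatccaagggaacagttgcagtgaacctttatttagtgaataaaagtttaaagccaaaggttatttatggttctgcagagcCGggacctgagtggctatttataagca
Hoxd8: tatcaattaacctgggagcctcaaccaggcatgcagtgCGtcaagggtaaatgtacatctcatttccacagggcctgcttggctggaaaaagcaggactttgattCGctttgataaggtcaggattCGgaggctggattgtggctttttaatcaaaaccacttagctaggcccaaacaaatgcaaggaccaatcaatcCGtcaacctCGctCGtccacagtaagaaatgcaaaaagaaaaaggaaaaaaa
They hold 3 and 6 CG, fewer than those of Hoxb4 and Hoxb8.

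**Figure D4:**
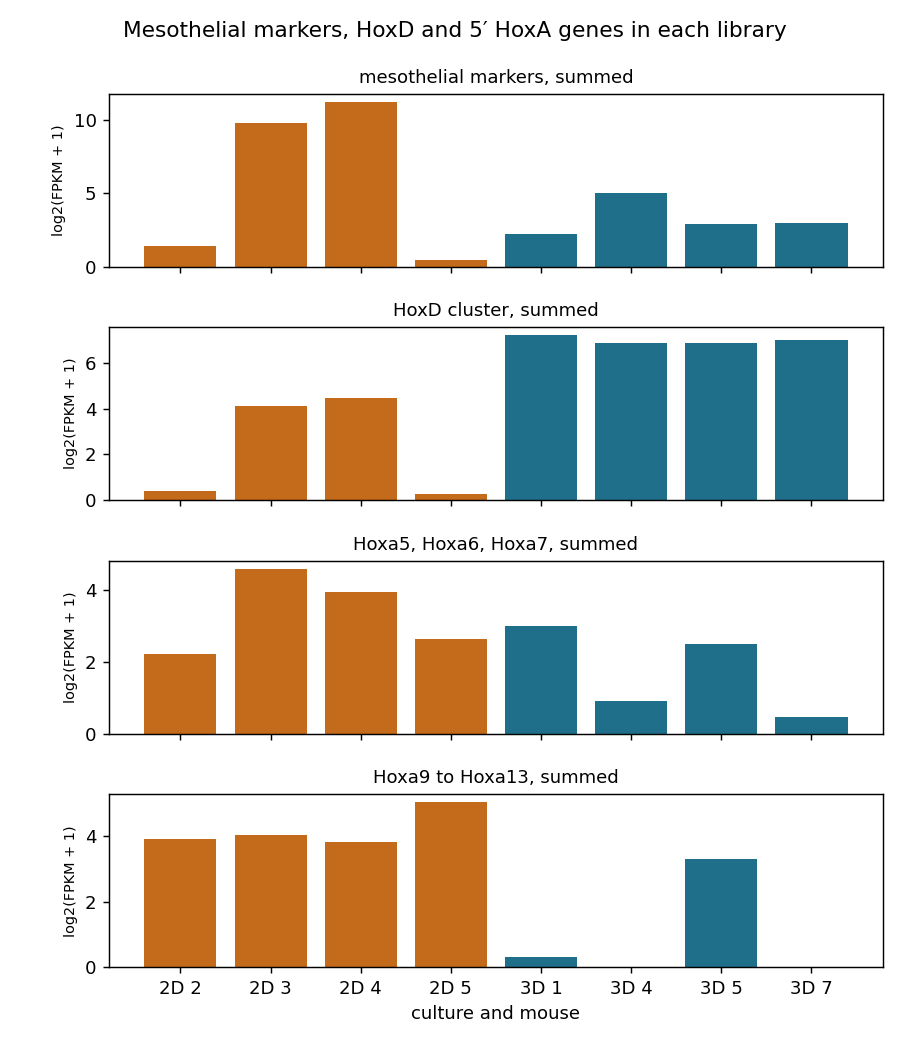
Log2(summed deposited FPKM + 1) of the 8 mesothelial markers, the HoxD genes, the central HoxA genes and the HoxA genes from number 9 upward in each of the 8 libraries (orange 2D, blue 3D). Mesothelial markers, HoxD and the central HoxA genes are higher in the 2D libraries of mice 3 and 4 than in those of mice 2 and 5, and among 3D libraries the posterior HoxA genes stand out in mouse 5.

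HoxA, on chromosome 6 (GRCm38, chr6:52155590-52260880), fell in 6 genes and was low in 3D, but unevenly between mice. Hoxa3, required for the thymus and parathyroid, was at 1.94, 5.400, 4.04 and 2.17 FPKM in 2D and at 3.14, 0.792, 1.26 and 0.600 FPKM in 3D. Hoxa4, of the neck vertebrae, was at 1.75, 1.497, 2.04 and 2.38 FPKM in 2D and at 1.899, 0.803, 0.952 and 0.650 FPKM in 3D. For both genes the 3D library of mouse 1 lay among the 2D libraries and the other 3D libraries lay below them. The log2 fold changes were -1.15 ± 0.32 (adjusted p = 0.0229) and -0.79 ± 0.18 (adjusted p = 0.00957), with ratios of 2D over 3D of 2.34 and 1.78. Without the 3D library of mouse 1 the fold changes were -1.40 (adjusted p = 0.00643) and -0.92 (adjusted p = 0.00379). The call of Hoxa3 was lost with the values as deposited (-0.87, adjusted p = 0.0968) and when the 2D library of mouse 3 or 4 or the 3D library of mouse 4, 5 or 7 was left out. With 1 library left out in this way the fold change was between -1.14 and -0.97 and the adjusted p between 0.0523 and 0.0622. Without both of those 2D libraries they were -0.79 and 0.128. The call of Hoxa4 was lost with the values as deposited (-0.52, adjusted p = 0.0704) and without the 2D libraries of mice 2 and 5 (-0.63, adjusted p = 0.0631). Transcripts of Hoxa3 span Hoxa4, Hoxa5 and Hoxa6 on the same strand, so the split of fragments among the 4 is uncertain.

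Hoxa5, essential for the lung and also active in fat, was at 1.55, 12.7, 7.61 and 1.67 FPKM in 2D and at 3.11, 0.632, 1.38 and 0.220 FPKM in 3D. Its 2D level followed the mesothelial markers, high in mice 3 and 4, and the 3D library of mouse 1 exceeded the 2D libraries of mice 2 and 5. Hoxa5 did not pass the test (-1.59 ± 0.57, adjusted p = 0.0591). It did without the 2D library of mouse 2 (adjusted p = 0.0428) or mouse 5 (0.0452) or the 3D library of mouse 1 (0.0451). Its fold change was -0.68 without the 2D libraries of mice 3 and 4 and -2.46 (adjusted p = 0.0119) without those of mice 2 and 5. Hoxa7, a thoracic gene, was at 0.988, 6.85, 4.46 and 2.29 FPKM in 2D and at 0.753, 0.249, 1.36 and 0.0350 FPKM in 3D. The 2D libraries of mice 3 and 4 were again the highest and the 3D library of mouse 5 overlapped the 2D range. The log2 fold change was -1.67 ± 0.41 (adjusted p = 0.0128) with a ratio of 2D over 3D of 6.09. Without the 3D library of mouse 5 the fold change was -1.86 (adjusted p = 0.0155). Without the 2D libraries of mice 2 and 5 it was -2.27 (adjusted p = 0.00554). Without the 2D libraries of mice 3 and 4 the fold change was -1.09 and the adjusted p 0.0547. Hoxa2, which patterns the second pharyngeal arch, and Hoxa6 did not pass the test. They lay between 0.832 and 2.69 FPKM and between 0 and 3.74 FPKM.

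Posterior HoxA genes specify the genital tract, where Hoxa9, Hoxa10, Hoxa11 and Hoxa13 follow each other along the female ducts and Hoxa10 and Hoxa11 act in the male ducts. Hoxa9, also a regulator of blood progenitors, was at 3.13, 6.401, 3.05 and 8.22 FPKM in 2D and at 0.0216, 0, 2.895 and 0 FPKM in 3D. Hoxa10, of the uterus and vas deferens, was at 10.8, 9.02, 9.66 and 21.6 FPKM in 2D and at 0.134, 0, 5.57 and 0 FPKM in 3D. Every 2D library expressed both, and among 3D libraries only that of mouse 5 did so clearly. The 3D value of mouse 5 lay below every 2D value for both genes. The log2 fold changes were -2.18 ± 0.48 (adjusted p = 0.00859) and -3.02 ± 0.62 (adjusted p = 0.00583). Without the 3D library of mouse 5 they were -2.62 (adjusted p = 0.00119) and -3.66 (adjusted p = 0.000216). Without the 2D libraries of mice 2 and 5 the calls were lost with fewer libraries at fold changes of -2.08 and -2.72 (adjusted p = 0.0545 and 0.0534). Hoxa11 peaked in 2D mouse 5 at 1.61 FPKM, and among 3D libraries it exceeded 3 fragments in mouse 5 alone, at 0.442 FPKM. In mouse 5, then, the 2D and the 3D library both had the highest Hoxa9, Hoxa10 and Hoxa11 values of their culture. Hoxa13, of the digits and the urogenital sinus, stayed at or under 3 fragments in all 8 libraries.

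The windows before Hoxa9 and before 1 of the 2 starts listed for Hoxa10 are shown for the pair that was kept in 1 of 4 3D libraries (RefSeq, GRCm38.p6; Hoxa9 chr6:52227371-52227620, minus strand; Hoxa10 chr6:52234940-52235189, minus strand), with CG in capitals.
Hoxa9: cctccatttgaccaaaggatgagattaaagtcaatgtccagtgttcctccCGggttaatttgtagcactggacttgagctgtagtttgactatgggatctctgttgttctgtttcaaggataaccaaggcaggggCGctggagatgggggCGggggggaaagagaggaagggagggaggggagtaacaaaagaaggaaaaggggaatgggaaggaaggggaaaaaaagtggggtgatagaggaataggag
Hoxa10: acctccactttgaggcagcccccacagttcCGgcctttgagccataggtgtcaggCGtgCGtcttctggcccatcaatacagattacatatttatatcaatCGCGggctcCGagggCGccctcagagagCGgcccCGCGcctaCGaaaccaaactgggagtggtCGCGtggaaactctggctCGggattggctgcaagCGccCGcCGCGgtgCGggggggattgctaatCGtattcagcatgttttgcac
They hold 3 and 20 CG, and the window before the other Hoxa10 start, not shown, holds 7.

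Read by paralogue number, and with a mean of at least 1 FPKM as the mark of expression, 28 Hox genes were expressed in 2D and 18 in 3D. In 2D the highest expressed numbers were 10 in HoxA, 9 in HoxB, 13 in HoxC and 9 in HoxD. In 3D they were 10 in HoxA, 9 in HoxB and 9 in HoxD, with 0 HoxC genes expressed. The HoxA value in 3D rests on mouse 5, without which it was 6. By library it was 6 in mouse 1, 10 in mouse 5 and 2 in mouse 7, and mouse 4 had no expressed HoxA gene. The value of 6 came from mouse 1, where Hoxa6 was at 3.195 FPKM, against 0 and 0.127 FPKM in mice 4 and 7. In every 3D library HoxB and HoxD were expressed up to number 9 and not beyond. In 2D, HoxB reached number 9 and HoxC number 13 in all 4 libraries, whereas HoxD reached number 9 in mice 3 and 4 and had no expressed gene in mice 2 and 5.

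Genes with the number 10 summed to 40.6, 18.8, 29.2 and 65.7 FPKM in 2D and to 0.815, 0.302, 5.73 and 0.298 FPKM in 3D. Those with the number 9 summed to 56.2, 17.7, 22.2 and 40.4 FPKM in 2D and to 84.7, 102, 179 and 156 FPKM in 3D. The step from 9 to 10 was therefore steep in 3D and absent or small in 2D, where the number 10 sum exceeded that of 9 in the libraries of mice 3, 4 and 5. By broader level, numbers 1 to 4 gave 16.5% to 19.4% of all Hox FPKM in 2D and 27.5% to 32.9% in 3D. Numbers 9 to 13 gave 22.7% to 52.1% in 2D and 15.5% to 28.1% in 3D, and these ranges overlap. Among 2D libraries, the posterior share was higher in mice 2 and 5 than in mice 3 and 4.

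Within a number, the shares of the clusters were as follows. For number 6, Hoxc6 supplied 70.2% to 78.2% of the FPKM in 2D and Hoxb6 at least 96.8% in 3D. For number 8, Hoxc8 supplied 52.5% to 91.5% in 2D, and in 3D Hoxd8 supplied 57.8% to 70.1% and Hoxb8 29.8% to 42.2%. For number 5, Hoxa5 and Hoxc5 together led in 2D, with Hoxb5 at 10.9% to 21.2%, and in 3D Hoxb5 was at 90.6% to 99.2%. For number 4, Hoxb4 supplied 34.4% to 55.9% in 2D and 43.7% to 57.6% in 3D, and Hoxd4 0.758% to 36.8% and 41.7% to 54.5%. Numbers 2 and 7 had the same leading gene in both cultures, with Hoxb2 at 59.6% to 92.4% and Hoxb7 at 66.4% to 92.6% in 2D. The central sum over numbers 5 to 8 was 82.9 ± 19.6 FPKM in 2D and 272 ± 33.1 FPKM in 3D (SD, n = 4 each), with no overlap between the cultures.

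Hox clusters also hold microRNA genes. Mir10a lies in HoxB, Mir10b in HoxD, and Mir196a-1, Mir196a-2 and Mir196b in HoxB, HoxC and HoxA. Their mature 5p strands (RefSeq, GRCm38.p6) are shown because they fall into 2 seed groups that repeat across the clusters. Capitals mark the seed, bases 2 to 8.
miR-10a-5p: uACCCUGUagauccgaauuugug
miR-10b-5p: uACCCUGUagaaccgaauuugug
miR-196a-5p: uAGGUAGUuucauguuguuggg
miR-196b-5p: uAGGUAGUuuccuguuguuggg
Counted from 1 at the 5′ end, miR-10a-5p and miR-10b-5p differ by U12A, and miR-196a-5p and miR-196b-5p by A12C. The libraries measure the hairpin genes, which are short, and not the mature strands. Mir10a was at 0 throughout 2D and at 109.6, 0, 94.6 and 97.02 FPKM in 3D, high in mice 1, 5 and 7 and at 0 in mouse 4. Mir196a-1 was at 205 FPKM in 2D mouse 4 only. Mir10b, Mir196a-2, Mir196b and Mir615 were at 0 in all 8. Over the 16 listed noncoding RNAs of the clusters, 4 rose and 2 fell of 11 tested (all genes tested: 21.2% and 20.3%), with a median log2 fold change of -0.27. Those that rose, Mir10a, Hoxb5os, Hoxd3os1 and Haglr, lie in HoxB and HoxD, and those that fell, Hotair and Hoxaas3, lie in HoxC and HoxA. Hoxb5os, Hoxd3os1, Haglr and Hoxaas3 overlap Hox genes on the opposite strand, so their levels may share fragments with those genes. Hotair was at 0.171, 0.111, 0.109 and 0.0861 FPKM in 2D and at 0, 0, 0 and 0 FPKM in 3D.

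Of 13 tested genes next to the clusters, 4 rose and 1 fell, beside 21.2% and 20.3% of all genes tested, with a median of 0.19. Beside HoxB, Ttll6, an enzyme that modifies tubulin in cilia, was at 0, 0, 0 and 0.0192 FPKM in 2D and at 9.42, 4.84, 6.92 and 8.67 FPKM in 3D. Skap1, on the other side of HoxB, changed by 0.57 ± 0.19 (adjusted p = 0.0483). Beyond Ttll6, Calcoco2 changed by 0.16 ± 0.05 (adjusted p = 0.0282), and Atp5g1 did not pass the test (-0.11 ± 0.16, adjusted p = 0.605). The genes tested beside HoxC, Smug1, Cbx5, Hnrnpa1 and Calcoco1, did not pass the test, and their lowest value in any library was 4.38 FPKM. Evx1 and Evx2, homeobox genes at the 5′ ends of HoxA and HoxD, were at 0 in all 8 libraries. Lnp, near HoxD, changed by -0.63 ± 0.19 (adjusted p = 0.0331), and Hibadh, near HoxA, by 0.43 ± 0.12 (adjusted p = 0.0195).

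Hox proteins bind DNA together with TALE homeodomain proteins of the Pbx, Meis and Pknox families. Of the 9 genes, 2 rose and 5 fell (all genes tested: 21.2% and 20.3%), with a median log2 fold change of -1.16. Pknox2 was at 8.82, 3.94, 4.33 and 11.03 FPKM in 2D and at 0.161, 0.190, 0.0391 and 0.0564 FPKM in 3D and changed by -2.84 ± 0.29 (adjusted p = 0.000210). Meis2 was at 4.103, 15.3, 10.5 and 5.93 FPKM in 2D and at 0.821, 1.46, 0.144 and 0.626 FPKM in 3D. Both were lower in every 3D library than in any 2D library, and Meis2 was highest in the 2D libraries of mice 3 and 4. Meis2 changed by -2.58 ± 0.36 (adjusted p = 0.000950), Meis1 by -2.29 ± 0.19 (adjusted p = 8.05e-05) and Pbx3 by -1.19 ± 0.29 (adjusted p = 0.0124).

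Polycomb proteins keep Hox genes silent outside their domain, and Trithorax proteins keep them active within it. Of 23 Polycomb subunit genes, 13 rose and 1 fell, where 21.2% and 20.3% of all genes tested did so, with a median of 0.39. Cbx7, a reader of the mark H3K27me3, was at 0.191, 0.104, 0.345 and 0.236 FPKM in 2D and at 3.84, 9.08, 11.3 and 10.6 FPKM in 3D and changed by 2.77 ± 0.34 (adjusted p = 0.000488). Ezh1, which writes that mark, was at 4.42, 6.38, 6.18 and 4.53 FPKM in 2D and at 29.2, 27.5, 32.6 and 36.2 FPKM in 3D and changed by 2.37 ± 0.13 (adjusted p = 1.02e-05). Both were higher in every 3D library, and for Cbx7 the 3D library of mouse 1 was the lowest of the 4. Cbx6 changed by 2.19 ± 0.32 (adjusted p = 0.00129) and Pcgf6 by 1.00 ± 0.15 (adjusted p = 0.00164), while Ezh2 did not pass the test (-0.50 ± 0.29, adjusted p = 0.212). Of 13 Trithorax and H3K27 demethylase genes, 7 rose and 1 fell (21.2% and 20.3% over all genes), with a median of 0.63. The largest changes were those of Kmt2d (1.23 ± 0.15, adjusted p = 0.000420), Kmt2b (1.17 ± 0.13, adjusted p = 0.000277), Kdm6b (0.90 ± 0.18, adjusted p = 0.00503) and Kdm6a (0.83 ± 0.13, adjusted p = 0.00149). Among 8 inducers of Hox genes and ParaHox genes, 3 were tested and Gdf11, a growth factor that sets posterior Hox expression in the trunk, fell. It was at 13.2, 12.6, 12.9 and 14.7 FPKM in 2D and at 4.101, 3.601, 3.002 and 3.24 FPKM in 3D and changed by -1.81 ± 0.11 (adjusted p = 1.80e-05). Cdx1 and Cdx2 did not exceed 0.160 FPKM, and Cdx4, Gsx1, Gsx2, Pdx1 and Mstn were at 0 in all 8 libraries. The median of the tested genes of that list was -0.02.

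**Figure D5:**
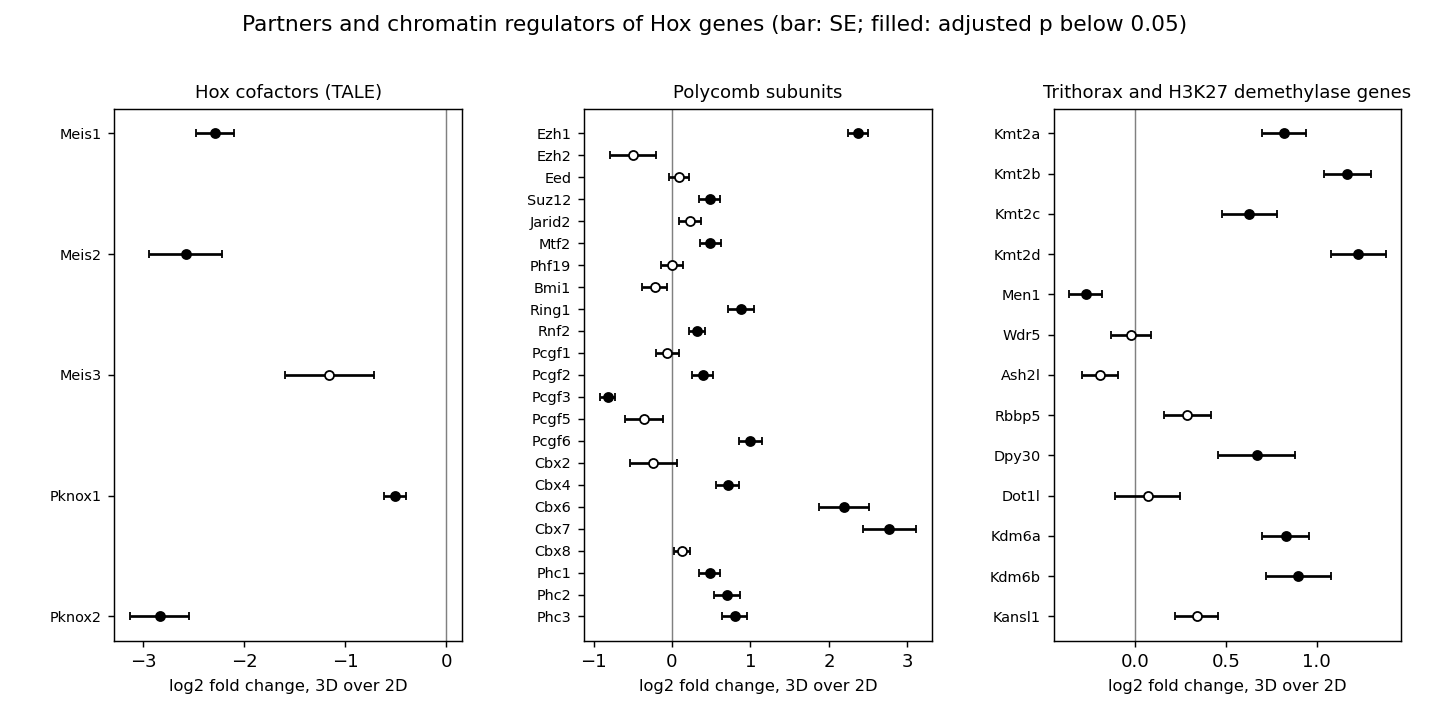
Log2 fold change (3D over 2D) with standard error of the Meis and Pknox cofactors, the Polycomb subunits and the Trithorax and H3K27 demethylase genes; filled points have an adjusted p below 0.05. Meis1, Meis2 and Pknox2 lie furthest below 0 and Ezh1, Cbx6 and Cbx7 furthest above it.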

How the data were processed

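The authors made directional libraries from total RNA, mapped the reads with TopHat to mm10 and deposited FPKM values per gene symbol from Cufflinks; the annotation and the use of strand are not given in the sources used here. Of 24346 genes, 5484 were at 0 in every library and 18862 were tested. Quantile normalized values were converted to log2(FPKM + 1) and fitted with limma 3.58.1 (R 4.3.3) with an intensity trend and no covariates. Adjusted p-values are from the Benjamini-Hochberg procedure across these 18862 genes, and genes were called below 0.05 with no limit on the fold. Other steps used Python 3.11.15 and pandas 2.3.3. The fit was tested on simulated data.

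Hox genes and gene lists were chosen with earlier results of these data known. Full values were given to Hox genes called with a mean of 1 FPKM or more in either culture, or at or under 3 fragments throughout 1 culture and at a mean of 1 FPKM or more in the other. Of each list, up to 4 called genes with the largest fold change, the most abundant marker and markers at 0 were named. A few genes that qualify are not reported here. Genes outside this rule, among them Hoxa5, Hoxc12, Hoxd10, Ezh2, Haglr and Hotair, were named after their values were seen. The lists were Hox cofactors, Polycomb subunits, Trithorax and demethylase genes, Hox inducers and ParaHox genes, Hox cluster noncoding RNAs, flanking genes, other positional transcription factors, and markers of stromal, epithelial, duct, epididymal, mesothelial, endothelial, leukocyte and adipocyte identity. Gdf8, Haglros, Hoxb3os, Prac1 and Lnpk were not listed under these symbols.

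For the depth, 875 genes with transcripts of 3000 nt or longer in GENCODE M21 (GRCm38) were used, and 67.8% to 79.2% of their low values lay near a whole number of fragments. This annotation, which also gave the gene positions, matched 23310 symbols.

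By the labels, each of mice 4 and 5 has a library in both cultures. Over 12583 genes, the 2D and 3D deviations from the means of the cultures had correlations of -0.05 (mouse 4) and -0.11 (mouse 5). The fit was repeated on the deposited values, without the trend, on genes averaging 1 FPKM or more, with a smaller pseudocount (0.1), with a block per mouse, and with each library left out. Expression marks of 0.5 and 2 FPKM and normalized FPKM were used for the description by cluster. Leaving out the pairs of 2D libraries with high or low mesothelial markers was chosen after seeing the data.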

Additional observations from a re-analysis of the deposited data

Results flagged for a closer look

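Among 59 groups of 4 libraries examined (Hox genes reaching 1 FPKM in the group, and cluster sums), 5 held a library whose gap to its nearest neighbour passed the critical value of Dixon's ratio; chance gives such a gap in about 1 of 20 groups. Hoxa2 was at 2.69 FPKM in the 2D library of mouse 3, above the other 2D libraries at 1.18 to 1.399 FPKM. Hoxa10 was at 21.6 FPKM in the 2D library of mouse 5, above 9.02 to 10.8 FPKM in the others. In 3D, Hoxa9 was at 2.895 FPKM and Hoxa10 at 5.57 FPKM in mouse 5, whereas the other 3D libraries did not exceed 0.0216 and 0.134 FPKM. Hoxd4 was at 59.1 FPKM in the 3D library of mouse 1, above 36.5 to 39.1 FPKM in the other 3D libraries.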

How the results depend on the processing

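Of the 28 called Hox genes, 23 kept direction and call in every alternative in which they were tested, the replicate block aside; Hoxa3, Hoxa4, Hoxa7, Hoxa9 and Hoxa10 lost the call in at least 1. Outside the block, 12 to 13 Hox genes were higher and 13 to 16 lower. With the mouse number as a replicate block, limma called 0 higher and 0 lower, with 11 each at an unadjusted p below 0.05 and 1 residual degree of freedom; over all genes it called 0, with 5216 at an unadjusted p below 0.05. Leaving out 1 library moved the highest expressed HoxD number in 2D between 8 and 9 (8 without mouse 4, and 8 with 2 FPKM as the mark) and the highest HoxA number in 3D between 6 and 10 (6 without mouse 5). With 2 FPKM as the mark, no HoxA gene was expressed in 3D, so there is no value, and 22 Hox genes were expressed in 2D and 12 in 3D. Near 0, the sign of Hoxb13 turned without the 3D library of mouse 4 (leave-one-out fold changes from -0.02 to 0.21) and that of Hoxd1 without the 2D library of mouse 3 or the 3D library of mouse 5 (from -0.02 to 0.05) and without the 2D libraries of mice 3 and 4 (-0.02); the cause was not tested. Hoxa5 passed the test among genes with a mean of 1 FPKM or more (adjusted p = 0.0351) and with a pseudocount of 0.1 (0.0428). Only mice 4 and 5 have both cultures, so culture and mouse are largely confounded. The cultures also differ in cell identity, and the mixture of cells within a library was not measured. Depth limits genes near 0, and levels of overlapping or antisense genes are uncertain.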

Other observations

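Of 16 other transcription factors of position, 0 rose, 6 fell in 3D and 10 did not pass the test (all genes tested: 21.2% higher, 20.3% lower), with a median log2 fold change of -1.27, and Emx2, a factor of the urogenital system, was the most abundant. Gata6, of the heart and the coelomic lining, was at 4.74, 31.1, 48.5 and 7.29 FPKM in 2D and at 0, 0, 0 and 0 FPKM in 3D. Tbx15, a limb girdle and fat depot factor, was at 22.5, 11.8, 12.2 and 29.7 FPKM in 2D and at 0.136, 0.932, 0.195 and 0.217 FPKM in 3D. Gata6 was higher in the 2D libraries of mice 3 and 4 and Tbx15 in those of mice 2 and 5, and both were near or at 0 in 3D. The log2 fold changes were -4.07 ± 0.61 (adjusted p = 0.00140) and -3.80 ± 0.30 (adjusted p = 6.00e-05). Tbx18 changed by -3.28 ± 0.18 (adjusted p = 9.61e-06) and Shox2 by -2.75 ± 0.35 (adjusted p = 0.000611). Emx2 itself was at 11.7, 14.8, 24.2 and 13.9 FPKM in 2D and at 20.3, 18.5, 27.9 and 23.8 FPKM in 3D and did not pass the test.

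Of 7 nephric and genital duct markers, 5 rose of 6 tested, where 21.2% of all genes tested rose and 20.3% fell, with a median of 3.55, and Lhx1 was at 0 in all 8 libraries. Emx2 was the most abundant of them. Epididymal secretory markers passed the test in 0 of 6 tested genes, with Lcn5, Lcn9, Adam7 and Spink11 at 0 in all 8 libraries and Crisp1, the most abundant, highest in 3D mouse 1 at 4.21 FPKM. Of 5 endothelial markers, 0 passed the test (all genes: 21.2% higher, 20.3% lower), and the most abundant, Kdr, was at 0.119, 3.66, 5.97 and 0.0986 FPKM in 2D and at 0, 0.0117, 0.0124 and 0 FPKM in 3D. Of 5 macrophage and leukocyte markers, 1 rose (21.2% over all genes), Cd68, at 0.838, 2.57, 2.87 and 0.562 FPKM in 2D and at 6.66, 32.3, 10.1 and 9.04 FPKM in 3D. Lyz2 was at 19.6, 0.203, 7.76 and 0.346 FPKM in 2D and at 0, 0, 0 and 0 FPKM in 3D and did not pass the test, and Ptprc did not exceed 0.0788 FPKM. Of 7 adipocyte markers, 3 fell of 5 tested (20.3% over all genes), Adipoq and Lep were at 0 in all 8 libraries, and Fabp4, the most abundant, was at 17.9, 3.87, 89.7 and 5.703 FPKM in 2D and at 0.159, 0, 0 and 0 FPKM in 3D. Summed FPKM in 2D and 3D were 12.8, 15.6, 25.01 and 14.4 and 90.4, 106, 132 and 122 for duct markers, and 0.446, 0.258, 0.486 and 0.620 and 5.66, 0.132, 0.593 and 0.102 for epididymal markers. For endothelial markers the sums were 0.792, 4.04, 6.46 and 0.676 in 2D and 0.0844, 0.0617, 0.204 and 0.104 in 3D. Leukocyte markers summed to 21.4, 3.24, 12.1 and 1.32 and 7.09, 38.6, 18.3 and 12.8, and adipocyte markers to 29.4, 27.4, 142 and 18.4 and 0.387, 0.0876, 0.565 and 0.538. The part of these cells in the Hox results was not tested. The median log2 fold changes were -4.40 for stromal, 6.37 for epithelial, -2.48 for mesothelial, 0.06 for epididymal, -0.25 for endothelial, 0.01 for leukocyte and -2.56 for adipocyte markers.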
